A study of Mus musculus with 24 samples.

Results

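The 9 genes described here encode the contractile apparatus of smooth muscle, and were followed through sorted cells of the healthy mouse liver and through cells of the same kinds after culture. They were taken by symbol from 49568 genes listed in each of 2 tables of RNA-seq values, and they had been chosen by their measured levels in PDGFRα+SCA1- cells and in cultured SCA1+Msc cells. Differences of PDGFRα+SCA1- cells from other populations, and of cultured from freshly sorted SCA1+Msc cells, are therefore given as descriptions with no test. In the homeostasis experiment, 4 populations were sorted from the livers of 3 littermates aged 12 weeks, mice A and E being male and mouse F female. These mice were heterozygous for B6.129S4-Pdgfratm11(EGFP)Sor/J, in which a histone-GFP fusion is made from the Pdgfra locus, on a C57BL/6 background, so that every population carried the reporter allele. The populations were ductal cells (DCs, taken as EpCAM+) and cells of 3 kinds that the labels call mesenchymal. These 3 were named PDGFRα+SCA1+, PDGFRα+SCA1- or PDGFRα-SCA1+ after the reporter and the surface protein SCA1. The study calls the PDGFRα-SCA1+ cells endothelial. In the transwell experiment, wild-type C57BL/6 mice aged 8 to 12 weeks gave freshly sorted DCs and SCA1+Msc cells (day 0), DCs grown for 15 days as organoids in expansion medium with growth factors (EM organoids) or above SCA1+Msc cells in medium without them (co-cultured organoids), and SCA1+Msc cells grown for 15 days alone or below the DCs, with 2 replicates each. All cells were sorted as CD45-, CD11b- and CD31-, and the SCA1+Msc cells were selected on SCA1 and not on PDGFRα. A cell-impermeable insert kept the co-cultured cells apart, and the SCA1+Msc cells had been expanded for 7 days before the DCs were added. The study describes the medium of the SCA1+Msc cells and co-cultures as holding serum and WNT3A, though not the growth factors of expansion medium.

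Smooth muscle shortens when myosin pulls on filaments of smooth muscle actin. Myosin light chain kinase switches the motor on, and a set of actin-binding proteins nucleates, cross-links and steadies the thin filaments. Most of these genes answer to serum response factor (SRF), which binds the CArG box, a stretch of DNA of the form CC, 6 letters A or T, GG, and which acts with myocardin or with the myocardin-related factors. In liver, the apparatus marks smooth muscle of the portal vessels and other mural cells around vessels, and its actin Acta2 is the usual marker of a hepatic stellate cell or portal fibroblast that has become a myofibroblast.

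The upstream bases were searched for such a box, and the matches of Acta2, the most abundant member in SCA1+Msc cells, and of Myl9 and Cnn2, contractile genes outside the 9, are shown. RefSeq start sites on GRCm38.p6 were available for 6 of the 9 genes (Acta2, Mylk, Cnn1, Smtn, Lmod1 and Synpo2), and Actg2, Myh11 and Tagln are named only. Within 250 bases before the start, with both strands covered because the complement of a box has the same form, an exact box was found in 0 of the 6, against 1.47% of 32851 promoters in the table. When at most 1 of the 6 central letters was allowed to differ from A or T, Acta2 alone of the 6 held matches, and 8.59% of all promoters did. Acta2 held a pair of them, which start 84 and 34 bases before the start site. In the annotation GENCODE M21 the first exon of Acta2 begins farther upstream and covers them both. Among the 20 promoters matched of 21 other contractile genes, 3 held an exact box, those of Cnn2, Myl9 and Vcl. The Acta2 sites each have 1 central letter other than A or T, and those of Myl9 and Cnn2 are exact. The sites are printed 5′ to 3′ on the gene's strand, with 10 bases on either side and the 10 letters of the box in capitals.
Acta2 at chr19:34255438-34255467, minus strand: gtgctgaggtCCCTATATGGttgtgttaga
Acta2 at chr19:34255388-34255417, minus strand: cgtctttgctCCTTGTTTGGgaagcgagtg
Myl9 at chr2:156775293-156775322, plus strand: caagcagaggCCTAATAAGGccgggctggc
Cnn2 at chr10:79988534-79988563, plus strand: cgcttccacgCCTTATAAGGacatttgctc
A match of letters is a description of the window and says nothing of binding in these cells.

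Values of the homeostasis experiment are those the authors deposited under the name TPM (transcript levels per gene length, scaled to a fixed total), although each is between 0.722 and 1.39 times its true TPM, because totals of other samples were used down the table. Transwell values are TPM, made here from the deposited RPKM. The reads recovered per sample ran from 19.6 M to 25.7 M in homeostasis and from 19.3 M to 28.05 M for the transwell samples, and a value worth 3 reads or fewer is not told apart from absence. The sorted populations carried their markers, with Epcam between 2966 and 3091 in DCs, Pdgfra between 52.9 and 103 in both PDGFRα+ populations and at most 0.0828 in the others, and Ly6a, the gene of SCA1, between 6.78 and 32.9 in PDGFRα+SCA1- cells against at least 952 in both SCA1+ populations. PDGFRα-SCA1+ cells, although sorted as CD31-, held Pecam1 (CD31) at 726 to 929, and the sum of 4 endothelial markers was 1641 to 1758 there and at most 14.8 in the other sorted populations. In samples of many cells, fewer cells that express a gene and less RNA of it per cell cannot be told apart.

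PDGFRα+SCA1- cells held the highest mean value of each of the 9 genes among the 4 sorted populations. On the log2(value + 1) scale, however, Synpo2 differed from PDGFRα+SCA1+ cells by -0.06 ± 0.73 (SE of the limma fit). The actins led. Acta2, the vascular smooth muscle actin (GRCm38, chr19:34241090-34255590, minus strand), measured 808, 1171 and 1708 in mice A, E and F, against 137, 103 and 131 in their PDGFRα+SCA1+ cells. It was 78.6, 16.2 and 22.2 in PDGFRα-SCA1+ cells, and 1.35, 1.32 and 5.59 in DCs. The 4 populations did not overlap in Acta2. Actg2, the actin of visceral smooth muscle (chr6:83512905-83536265, minus strand), measured 207, 306 and 427 in PDGFRα+SCA1- cells and 3.73, 7.82 and 9.07 in PDGFRα+SCA1+ cells. In DCs and PDGFRα-SCA1+ cells it rested on at most 3 reads in any sample, at or below 0.3501, so that of the 4 populations Actg2 passed the floor in the PDGFRα+ cells.

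The motor genes followed the actins in order but not in size. Myh11, the smooth muscle myosin heavy chain and a marker of the mature muscle (chr16:14194535-14291372, minus strand), measured 148, 233 and 369 in PDGFRα+SCA1- cells and 20.8, 17.5 and 21.0 in PDGFRα+SCA1+ cells. It was 3.37, 3.37 and 5.62 in PDGFRα-SCA1+ cells and rested on at most 2 reads in DCs. Mylk, the myosin light chain kinase (chr16:34745210-35002420, plus strand), was 97.01, 192 and 133 in PDGFRα+SCA1- cells. Its 82.8, 68.2 and 105 in PDGFRα+SCA1+ cells overlapped with them on the deposited scale. With the reuse of totals undone Mylk did not overlap, at 106 to 160 TPM in PDGFRα+SCA1- and 81.0 to 88.6 TPM in PDGFRα+SCA1+ cells. DCs held Mylk at 17.2, 8.15 and 18.1, within the range of PDGFRα-SCA1+ cells at 18.5, 26.2 and 14.6 except for mouse E.

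Among genes of the thin filament, Cnn1 (calponin, which slows the myosin ATPase, chr9:22099216-22109630, plus strand) was the most unequal between the PDGFRα+ populations. It measured 72.9, 178 and 265 in PDGFRα+SCA1- cells, and 0.0506, 0 and 7.72 in PDGFRα+SCA1+ cells, where only mouse F was above the floor of 3 reads. DCs held 7.91, 9.78 and 6.47, more than PDGFRα+SCA1+ cells in mice A and E and less in mouse F, and PDGFRα-SCA1+ cells held 15.2 in mouse E against at most 2 reads in mice A and F. Smtn (smoothelin, an actin filament binder, chr11:3517523-3540612, minus strand) was the member that was high everywhere. It measured 324, 284 and 287 in PDGFRα+SCA1- cells, 130, 108 and 216 in PDGFRα+SCA1+ cells, 62.7, 98.5 and 80.2 in PDGFRα-SCA1+ cells and 79.9, 125 and 105 in DCs. Part of its exons (16.3% of bases) lies under Gm11946 on the other strand, and the library method does not mark strand.

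Lmod1 (leiomodin, which nucleates actin filaments, chr1:135324807-135368065, plus strand) and Synpo2 (myopodin, an actin bundler, chr3:123076519-123236149, minus strand) separated PDGFRα+ cells from the others and not the PDGFRα+ populations from each other. Lmod1 was 48.4, 38.9 and 67.3 in PDGFRα+SCA1- and 24.8, 54.8 and 26.9 in PDGFRα+SCA1+ cells, with 0 reads in all 3 DC samples. Synpo2 was 3.37, 22.1 and 15.8 in PDGFRα+SCA1- and 10.2, 8.26 and 17.5 in PDGFRα+SCA1+ cells, and its spread in the former was the widest of the 9, 6.56-fold between mice E and A. Tagln (transgelin, also called SM22-alpha, an actin cross-linker, chr9:45929619-45936058, minus strand) was 8.73, 19.01 and 29.0 in PDGFRα+SCA1- and 9.003, 5.98 and 6.02 in PDGFRα+SCA1+ cells. In GENCODE M21, 67.9% of the exonic bases of Tagln are covered by other genes, mainly by Gm48529 on the opposite strand. Gm48529 is not listed with the deposited values, and Pcsk7, which is listed, covers 5.43%. The Tagln values are uncertain, and the part of these overlaps in them was not tested.

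**Figure D1:**
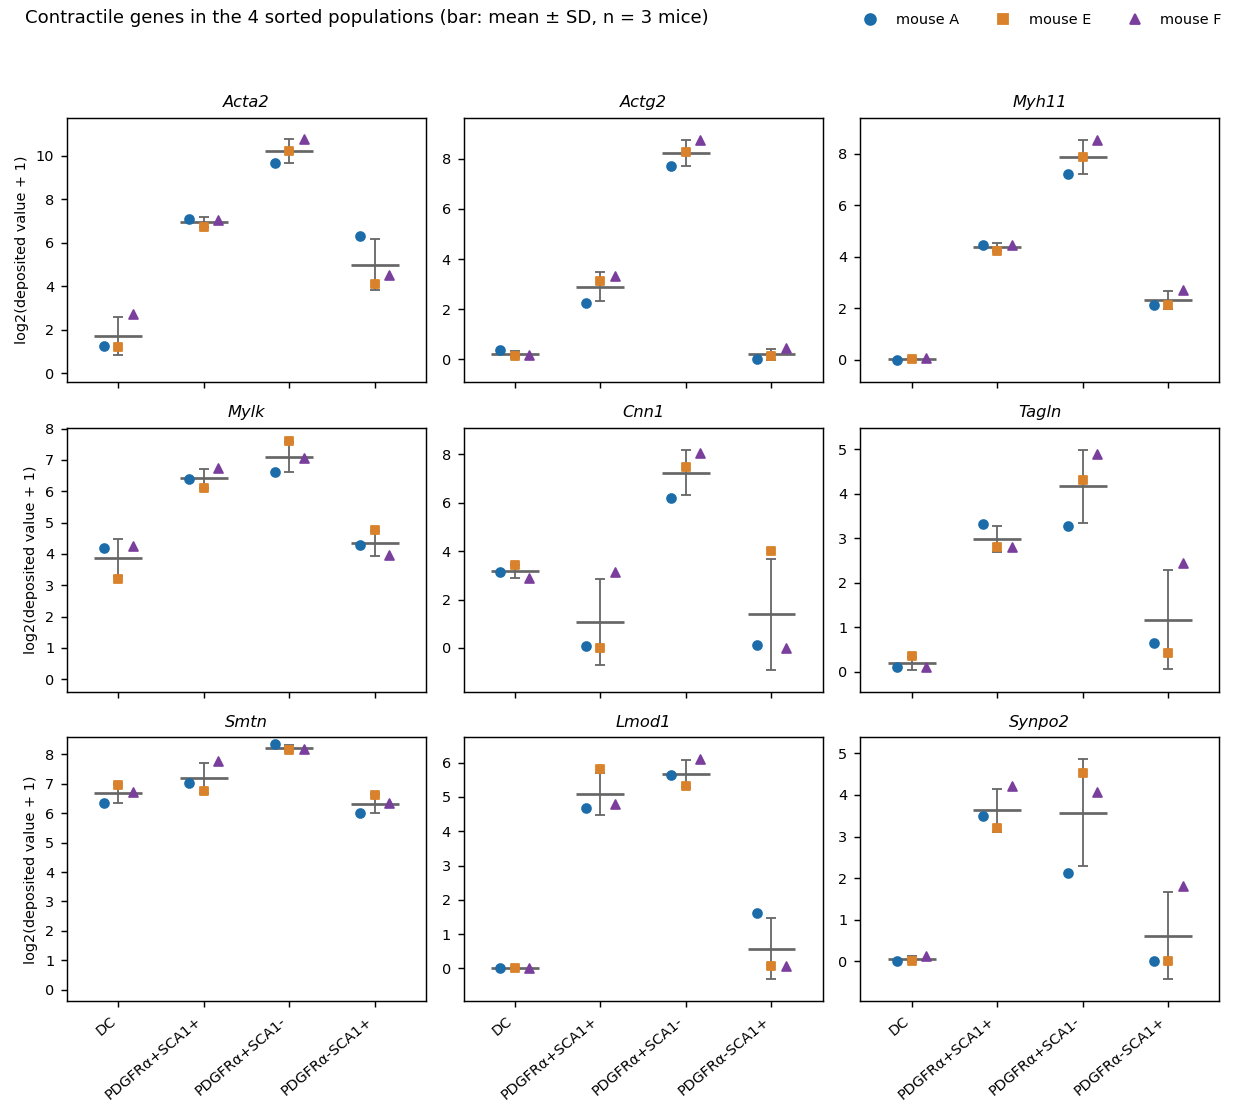
Log2(deposited value + 1) of the 9 genes (vertical axis of each panel) in the 4 sorted populations, with one symbol per mouse and bars for the mean ± SD of 3 mice. Acta2, Actg2, Myh11 and Cnn1 stand highest in PDGFRα+SCA1- cells with no overlap, whereas Lmod1, Synpo2 and Mylk overlap between the PDGFRα+ populations on this scale.

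Set against PDGFRα+SCA1+ cells, PDGFRα+SCA1- cells were higher with no overlap in 5 of 9 members (Acta2, Actg2, Myh11, Cnn1 and Smtn), while 5.66% of 17028 genes were so in that direction. As the members were chosen by this contrast, nothing is read from the count. It also depends on the scale, since Mylk and Tagln did not overlap either with the totals undone. Tagln was then 12.1 to 35.7 TPM in PDGFRα+SCA1- and 6.41 to 10.7 TPM in PDGFRα+SCA1+ cells. On the log2(value + 1) scale, the limma fit over all genes put the differences at 6.18 ± 1.09 (SE) for Cnn1, 5.33 ± 0.50 for Actg2, 3.50 ± 0.43 for Myh11 and 3.25 ± 0.56 for Acta2. Smtn differed by 1.03 ± 0.29. Against DCs and against PDGFRα-SCA1+ cells, 9 of 9 members were higher without overlap, where 12.7% and 8.94% of all genes were. The median difference of the members was 1.19 from PDGFRα+SCA1+ cells, 4.09 from DCs and 5.10 from PDGFRα-SCA1+ cells, beside medians over all genes of -0.15, -0.47 and -0.41. With the totals undone, the medians over all genes moved by 0.17 against DCs and by 0.11 against PDGFRα-SCA1+ cells, and that of PDGFRα+SCA1+ cells over DCs by 0.15.

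The 3 mice did not contribute alike. In PDGFRα+SCA1- cells 5 of 9 members (Acta2, Actg2, Myh11, Cnn1 and Tagln) were lowest in mouse A and highest in mouse F, and the same 5-member count was found with the totals undone. The highest mouse exceeded the lowest 2.11-fold in Acta2, 2.495-fold in Myh11 and 3.63-fold in Cnn1, whereas Smtn varied 1.14-fold (deposited scale). With the totals undone these were 1.67-fold in Acta2, 1.80-fold in Myh11, 3.78-fold in Cnn1 and 1.28-fold in Smtn. The sum of 4 stellate cell markers was 7112, 8126 and 2815 in mice A, E and F, and the sum of 12 mural markers was 1501, 1618 and 1076, so that mouse F, with the most contractile transcripts, held the least of both. The part of cell composition and of sex, with 1 female mouse, in this order was not tested.

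The share of Acta2 in the contractile transcripts was alike in the 3 mice, and those of other members were not. On the TPM scale with the totals undone, Acta2 took 52.0%, 49.4% and 50.5% of the 9 genes' summed TPM in the PDGFRα+SCA1- population (mice A, E and F in turn), although that sum ran from 2100 to 3607. The share of Cnn1 was 4.23%, 8.58% and 9.31%, that of Smtn 15.4%, 11.1% and 8.97%, and that of Synpo2 0.217%, 0.932% and 0.468%. In PDGFRα+SCA1+ cells, where the sum was 404 to 474, Acta2 took 27.2% to 34.4%, and Smtn ranked first in mice E and F. There were 5.68, 5.40 and 5.26 Acta2 transcripts per Myh11 transcript in PDGFRα+SCA1- cells of the 3 mice, and 7.08, 6.73 and 6.46 in PDGFRα+SCA1+ cells. The ratio of Acta2 to Actg2, by contrast, was 3.58 to 4.81 in the former and 11.8 to 42.2 in the latter.

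The comparisons between the remaining populations were not used to choose the genes, and they were tested. PDGFRα+SCA1+ cells exceeded DCs in 7 of 9 members (limma, Benjamini-Hochberg adjusted p under 0.05), where 9.85% of 17028 genes were called higher. Acta2 was higher by 5.23 ± 0.56 on the log2 scale (adjusted p = 2.61e-05), Myh11 by 4.34 ± 0.43 (adjusted p = 1.41e-05) and Mylk by 2.53 ± 0.39 (adjusted p = 0.000405). Actg2, Tagln and Synpo2 were also called, at 2.69, 2.80 and 3.58. Lmod1, absent from DCs, was at least 251-fold higher, taking 3 reads per library as the floor in DCs. Smtn differed by 0.51 ± 0.29 (adjusted p = 0.244), and was called with the totals undone (adjusted p = 0.0262). For Cnn1 the difference was -2.10 ± 1.09 with an adjusted p of 0.196. The median of the members was 2.80 and that of all genes -0.28, and it did not change with Lmod1 set at its bound.

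PDGFRα-SCA1+ cells were lower than PDGFRα+SCA1+ cells in 6 of 9 members, where 7.86% of all genes were called lower. Lmod1 was lower by 4.52 ± 0.57 (limma, adjusted p = 0.000139), Synpo2 by 3.02 ± 0.73 (adjusted p = 0.0114), Actg2 by 2.71 ± 0.50 (adjusted p = 0.00212), Mylk by 2.07 ± 0.39 (adjusted p = 0.00237) and Myh11 by 2.04 ± 0.43 (adjusted p = 0.00545). Acta2 was lower, with a difference of -1.965 ± 0.56 (adjusted p = 0.0290), and this call was lost in 8 of 14 alternatives, up to an adjusted p of 0.112. Smtn and Tagln lay below without overlap in their samples but did not pass the test (adjusted p = 0.0600 and 0.0746), and each was called in 4 alternatives. The members' median was -2.04 and that of all genes 0.25.

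Of the 9 members, 2 remained above the ductal level in PDGFRα-SCA1+ cells, where 11.5% of all genes were called higher. Acta2 exceeded DCs by 3.27 ± 0.56 (limma, adjusted p = 0.00104) and Myh11 by 2.29 ± 0.43 (adjusted p = 0.00195). The other 7 did not pass the test, and Cnn1 and Smtn had differences of -1.78 and -0.36. Actg2 rested on at most 3 reads in every sample of both populations, so its difference of -0.03 says nothing. Tagln, Lmod1 and Synpo2 rested on at most 8 reads in DCs. They and Actg2 passed the filter through PDGFRα+ cells, so nothing is read from these counts of members. The median of the members was 0.56 and that of all genes -0.04. The part of the endothelial transcripts in these cells in any of these differences was not tested.

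The rest of the contractile machinery was followed in a list of 21 other genes of filaments, tropomyosins and their partners, of which 20 were fitted. In PDGFRα+SCA1+ cells over DCs, 6 were called higher and 5 lower, with a median of 0.38, where 9.85% of all genes were called higher and 14.0% lower. The intermediate filament gene Des was higher by 7.28, the regulatory myosin light chain Myl9 by 6.85 and the tropomyosin Tpm2 by 5.44, whereas the general actin linkers Actn1, Vcl and Flna differed by -1.99, -1.73 and -1.36. Myl9 followed the order of Acta2 by mouse in PDGFRα+SCA1- cells, at 908, 1446 and 1997 in mice A, E and F. Des did not separate the PDGFRα+ populations, at 121, 191 and 177 in PDGFRα+SCA1- and 245, 210 and 173 in PDGFRα+SCA1+ cells. Of 12 mural markers, 11 were fitted, and 7 were called higher and 0 lower in PDGFRα+SCA1+ cells than in DCs, beside the same shares of all genes. Set without a test against PDGFRα+SCA1+ cells, the PDGFRα+SCA1- population had 3 of the 11 higher and 1 lower with no overlap. In that contrast 5.66% of all genes were so higher, and the median of the markers was 0.65. The summed mural markers overlapped, since the lowest PDGFRα+SCA1- sum, 1076, lay below the highest PDGFRα+SCA1+ sum, 1093.

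Over the 12 sorted samples, the genes most like the members were ranked by their correlation with the mean of the members, as a description across samples that share libraries. Lrrc4c (r = 0.98), Postn (r = 0.97), Zcchc5 (r = 0.97) and Myocd (r = 0.97) came first. Of the members themselves, Myh11 lay closest (r = 0.98) and Cnn1 farthest (r = 0.65).

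SRF and its partners did not share one pattern. Srf was highest in DCs, at 66.3, 69.6 and 69.7, and lowest in PDGFRα+SCA1- cells, at 5.05, 4.79 and 3.03, where each member had its highest mean value. The members did not share one order over the other populations. Srf was lower in PDGFRα+SCA1+ cells than in DCs by 2.05 on the log2 scale (a difference of -2.05, limma, adjusted p = 0.0148). Myocd, the muscle-restricted coactivator, was 32.1, 19.8 and 142 in PDGFRα+SCA1- cells and 7.54, 5.80 and 9.11 in PDGFRα+SCA1+ cells, where it exceeded DCs by 3.04 (adjusted p = 0.00622). Mouse F, highest in Acta2, was also highest in Myocd.

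**Figure D2:**
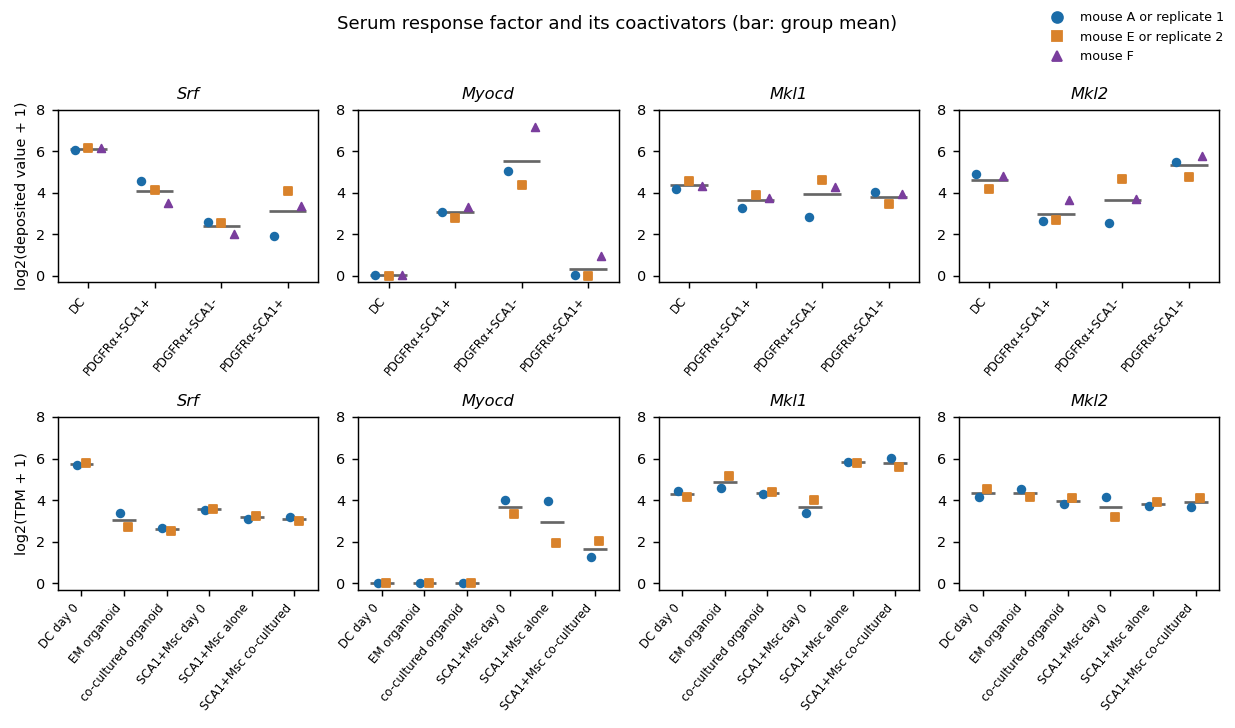
Log2(value + 1) of SRF and its coactivators in the 4 sorted populations and the 6 transwell groups, with one point per sample. Srf stands highest in freshly sorted DCs in both experiments, and Myocd in PDGFRα+SCA1- cells.

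After 15 days in culture, SCA1+Msc cells held more of some contractile transcripts and less of others than when freshly sorted. Acta2 was 430 and 601 TPM at day 0, 3072 and 2828 TPM in cells grown alone and 3416 and 3154 TPM in co-cultured cells. Actg2 went with it, from 65.2 and 70.6 TPM to 283 and 238 TPM alone and 398 and 303 TPM in co-culture. These actins did not overlap between day 0 and day 15. Tagln was 16.8 and 16.9 TPM at day 0, 40.1 and 42.7 TPM alone and 52.7 and 56.4 TPM in co-culture. Mylk was 85.1 and 103 TPM at day 0, 264 and 235 TPM alone and 223 and 243 TPM in co-culture.

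Myh11, Smtn and Synpo2 were lower after culture. Myh11 was 53.1 and 65.6 TPM at day 0, 26.4 and 21.5 TPM alone and 28.3 and 20.7 TPM in co-culture. Smtn was 178 and 166 TPM at day 0, and 72.0, 72.1, 81.3 and 75.05 TPM in the 4 cultures. Synpo2 was 8.77 and 6.68 TPM at day 0, 3.26 and 2.48 TPM alone and 1.65 and 1.32 TPM in co-culture. In none of these did day 0 overlap with either culture. Cnn1, at 18.1 and 40.7 TPM on day 0, and Lmod1, at 15.5 and 32.3 TPM, had day 0 replicates so far apart that the cultures fell within or near them.

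Counted without a test, since this contrast chose the members, 4 of 9 members were higher and 3 lower with no overlap in cells grown alone, where 39.1% of 18136 genes were higher and 25.5% lower. The counts were again 4 and 3 in co-cultured cells, where the shares of all genes were 38.6% and 26.0%. On the log2(TPM + 1) scale, cells grown alone differed from day 0 by 2.53 ± 0.99 in Acta2, 1.92 ± 0.29 in Actg2, 1.40 ± 0.20 in Mylk and 1.25 ± 0.25 in Tagln, and by -1.27 ± 0.38 in Myh11, -1.24 ± 0.22 in Smtn and -1.17 ± 0.31 in Synpo2. The median of the members was 0.50 in both contrasts, beside medians over all genes of 0.19 and 0.17, and it became -0.0125 and -0.0608 without day 0 replicate 1. On the RPKM scale the median of all genes in cells grown alone moved by -0.11. The sum of 4 hepatocyte markers was 17201 to 21643 TPM at day 0 and 25.4 to 381 TPM in the 4 cultures. Over the same contrast the sum of 4 stellate cell markers went from 2406 to 3002 TPM to 883 to 1098 TPM, that of 5 portal fibroblast markers from 2794 to 3030 TPM to 547 to 846 TPM, and that of 4 ductal markers from 267 to 438 TPM to 5.46 to 18.1 TPM. The sum of 4 endothelial markers, by contrast, was 149 to 163 TPM at day 0 and 89.4 to 171 TPM in the 4 cultures. The part of cell composition in these differences was not tested.

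The balance within the apparatus moved with culture. There were 8.10 and 9.16 Acta2 transcripts per Myh11 transcript at day 0, 116 and 131 in cells grown alone and 121 and 152 in co-cultured cells. Acta2 made up 49.4% and 54.5% of the summed TPM of the 9 genes at day 0, and 80.1% and 80.6% in either culture. The sum itself was 871 and 1102 TPM at day 0, 3835 and 3508 TPM alone and 4266 and 3915 TPM in co-culture.

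**Figure D3:**
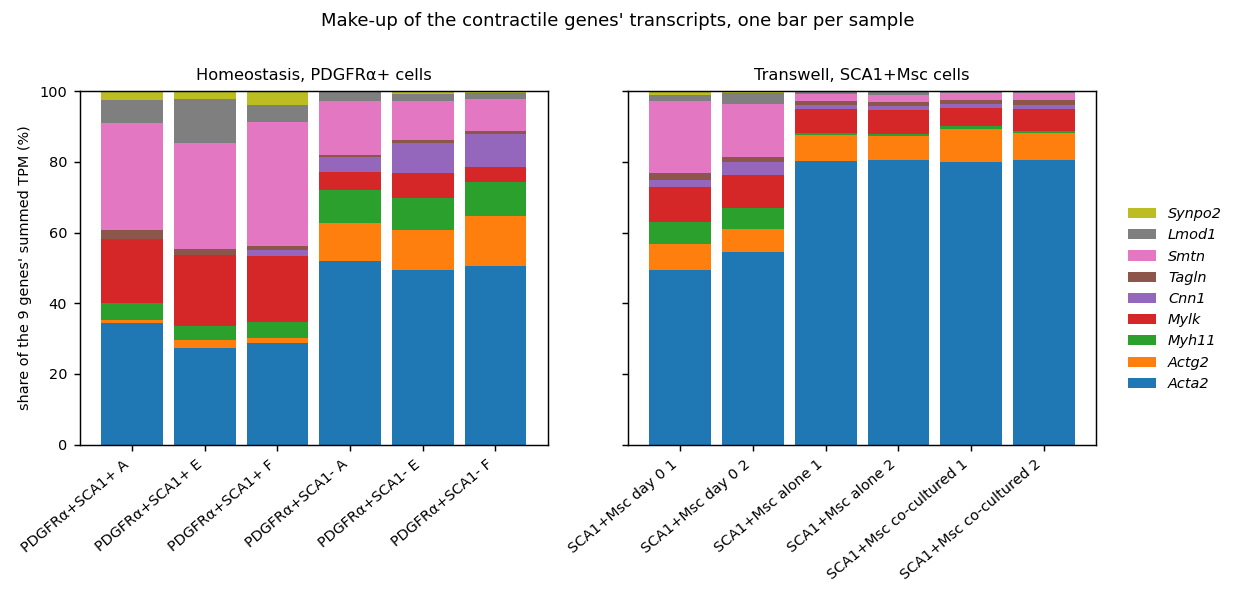
Share of each of the 9 genes in their summed TPM, in percent, for every sample of the PDGFRα+ populations and of the SCA1+Msc groups. Acta2 takes 49.4% to 52.0% in PDGFRα+SCA1- cells and 80.1% to 80.6% in the 4 cultured SCA1+Msc samples.

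DCs in the other chamber did not shift the members detectably. Between co-cultured SCA1+Msc cells and those grown alone, 0 of 9 members passed the limma test and 0 had an unadjusted p under 0.05, while 0.0937% of 18136 genes were called higher and 0.0331% lower (23 genes in all) and 1263 had an unadjusted p under 0.05. The difference was 0.16 in Acta2 (95% interval -2.08 to 2.39), 0.42 in Actg2 (-0.24 to 1.07), 0.39 in Tagln (-0.18 to 0.96) and -0.64 in Synpo2 (-1.35 to 0.07). The interval of Acta2 rests on a spread pooled over all 6 groups, the co-cultured organoids included. With 2 replicates each, Acta2, Actg2, Tagln and Smtn were higher and Lmod1 and Synpo2 lower in co-culture with no overlap, 4 and 2 of 9 members, where 14.9% of all genes were so higher and 19.0% lower.

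**Figure D4:**
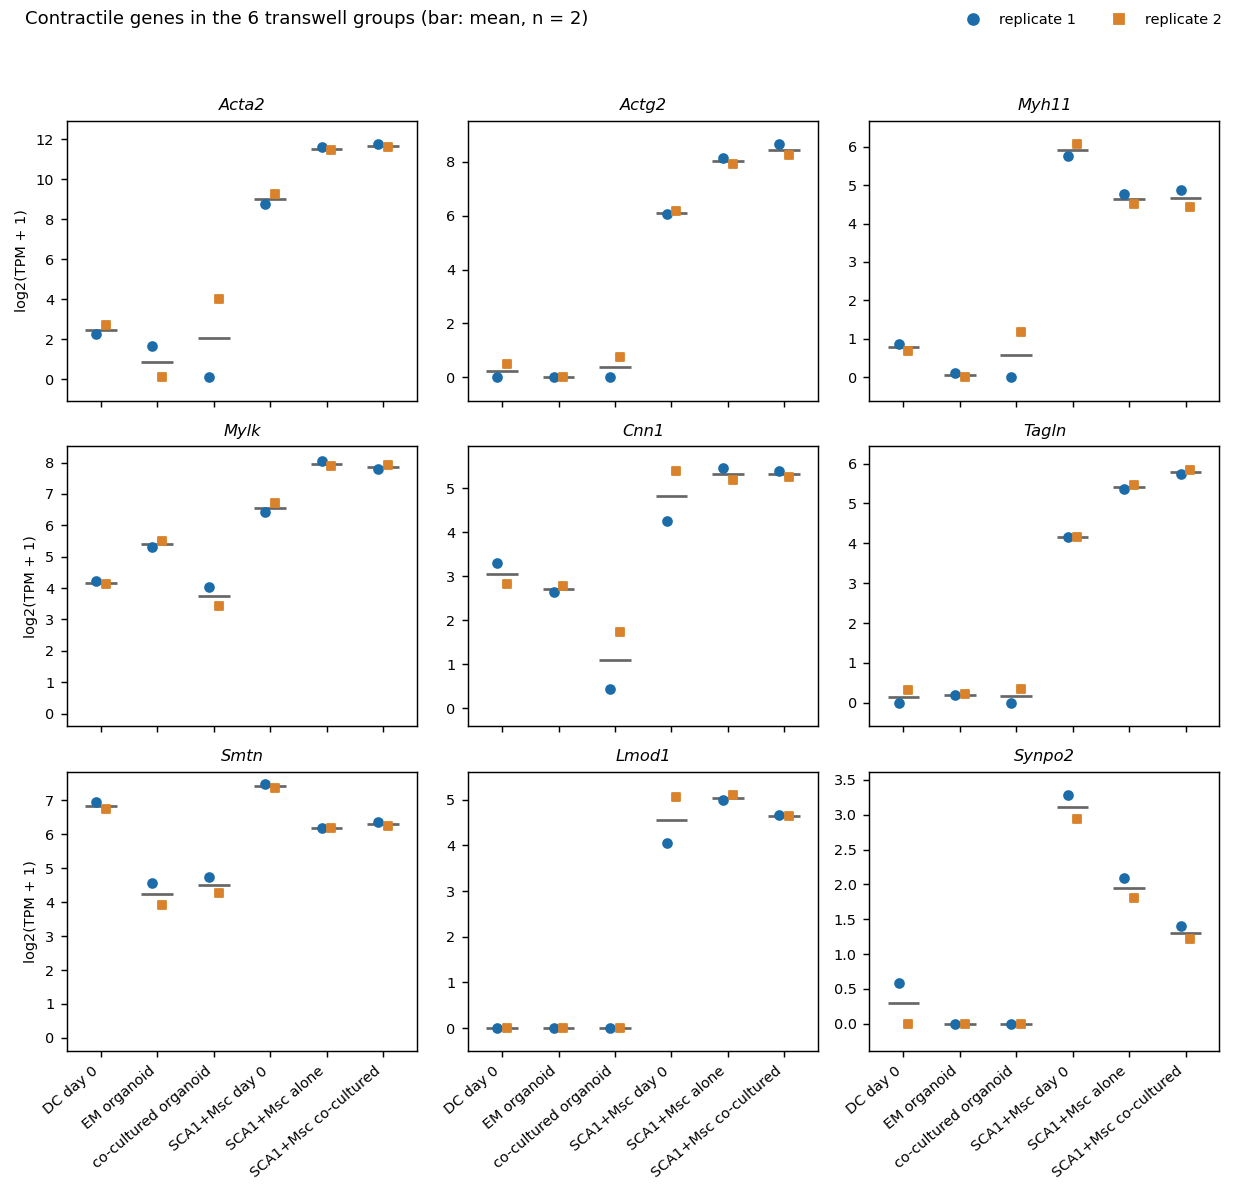
Log2(TPM + 1) of the 9 genes in the 6 transwell groups, with one point per replicate and bars for the mean of 2. Acta2, Actg2, Mylk and Tagln stand higher in cultured than in freshly sorted SCA1+Msc cells, whereas Myh11, Smtn and Synpo2 stand lower.

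In the ductal lineage, Smtn was the most abundant member in freshly sorted DCs and co-cultured organoids, and Mylk in EM organoids. Smtn was 122 and 107 TPM in freshly sorted DCs, 22.6 and 14.2 TPM in EM organoids and 25.5 and 18.5 TPM in co-cultured organoids. It fell by 2.60 ± 0.22 in EM organoids (a difference of -2.60, limma, adjusted p = 1.35e-05) and by 2.34 ± 0.22 in co-cultured organoids (-2.34, adjusted p = 2.84e-05). It was the only one of 9 members called lower in EM organoids, where 17.2% of all genes were. However, Actg2, Tagln, Lmod1 and Synpo2 were below 1 TPM in every DC and organoid sample. Myh11 reached 1 TPM there only in replicate 2 of the co-cultured organoids. All of these passed the filter through SCA1+Msc cells, so nothing is read from the counts of members in the organoid contrasts. Srf fell with it, from 50.1 and 54.1 TPM to 9.52 and 5.43 TPM in EM organoids and 5.32 and 4.73 TPM in co-cultured organoids (limma, adjusted p = 3.37e-05 and 1.44e-05).

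The kinase Mylk separated the organoids. It was 17.5 and 16.5 TPM in DCs, 39.0 and 43.9 TPM in EM organoids and 15.5 and 9.75 TPM in co-cultured organoids. It rose by 1.24 ± 0.20 in EM organoids (limma, adjusted p = 0.000833), the only one of 9 members called higher there, where 27.1% of all genes were. In co-cultured organoids its difference from DCs was -0.43 ± 0.20 (adjusted p = 0.117), and that from EM organoids was -1.67 ± 0.20 (adjusted p = 0.000689).

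Cnn1 was 8.79 and 6.07 TPM in DCs, 5.28 and 5.89 TPM in EM organoids and 0.368 and 2.33 TPM in co-cultured organoids. Co-cultured organoids were thus below DCs, with a difference of -1.964 ± 0.45 (limma, adjusted p = 0.00637), one of 2 members called lower, where 19.1% of all genes were. Against EM organoids, 2 of 9 members were called lower, where 7.21% of all genes were. The Cnn1 difference there, -1.62 ± 0.45 (adjusted p = 0.0446), passed the threshold in 3 of 13 settings, with adjusted p-values between 0.0222 and 0.278.

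The mesenchymal members were at or near 0 in organoids. Lmod1 had 0 reads in all DC and organoid samples, and Synpo2 had 0 in all 4 organoid samples. Acta2 was 2.13 and 0.0879 TPM in EM organoids, and 0.0628 and 15.3 TPM in co-cultured organoids, so that replicate 2 alone decided its mean. In that replicate Myh11 was 1.26 TPM against 0 in replicate 1, Col1a2 was 2.25 against 0.0270 TPM and Col3a1 was 2.77 against 0.581 TPM. The part of RNA from SCA1+Msc cells in these values was not tested.

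Of the list of other contractile genes, 19 were fitted in the transwell experiment. In EM organoids 2 were called higher and 11 lower than in DCs, where 27.1% and 17.2% of all genes were. In co-cultured organoids 4 were called higher and 9 lower than in DCs, where 23.2% and 19.1% of all genes were. Against EM organoids, co-cultured organoids had 7 higher and 0 lower, where 5.73% and 7.21% of all genes were, led by Tpm2 at 3.15, Cnn2 at 1.41 and Actn1 at 1.27. Tpm2, which strengthens the actin filament, was 7.04 and 8.24 TPM at its lowest and highest in EM organoids and 70.1 and 81.8 TPM in co-cultured organoids. Over day 0, 12 of the 19 were higher without overlap and 3 lower in SCA1+Msc cells grown alone (39.1% and 25.5% of all genes), and 12 were higher and 4 lower in co-cultured cells (38.6% and 26.0%). Cnn2 differed from day 0 by 2.41 in cells grown alone.

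**Figure D5:**
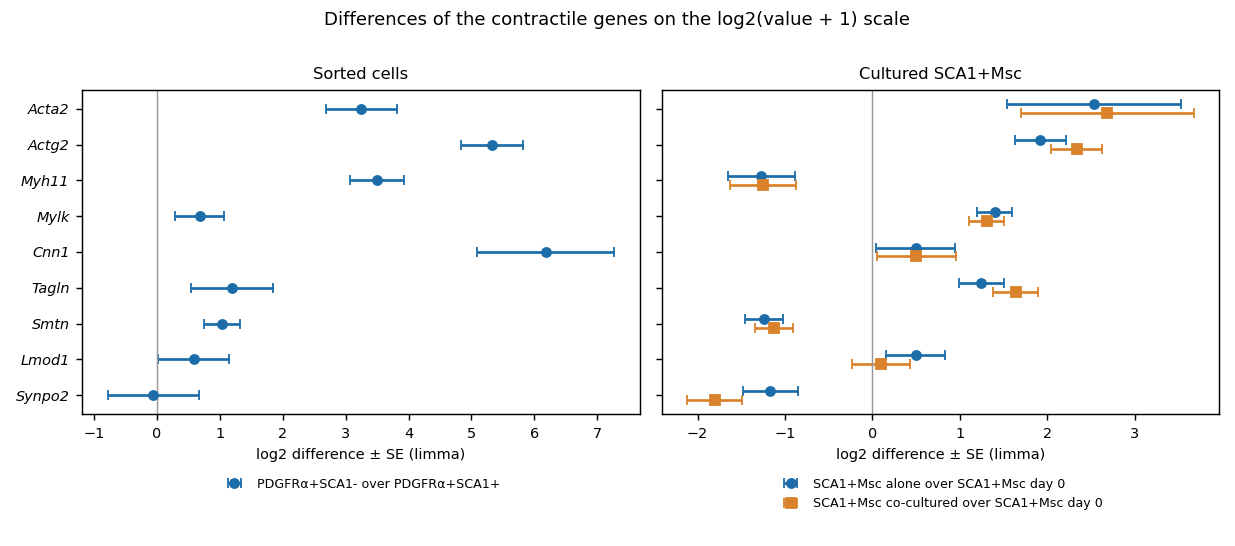
Log2 differences of the 9 genes, with error bars of ± SE from limma. The contrasts shown are PDGFRα+SCA1- over PDGFRα+SCA1+ cells, and SCA1+Msc cells grown alone and co-cultured over day 0. The differences of cultured from freshly sorted SCA1+Msc cells run from -1.81 in Synpo2 to 2.69 in Acta2.

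Across the 12 transwell samples, Col1a2 (r = 0.998), Col3a1 (r = 0.997) and Myl9 (r = 0.997) were among the genes most like the mean of the members, a description over samples of which 6 were SCA1+Msc and 6 ductal. In the sums of 14 myofibroblast matrix genes, cultured SCA1+Msc cells held 18407 to 23487 TPM and day 0 cells 6472 to 7082 TPM. Of these 14 genes, 7 were higher and 4 lower without overlap in cells grown alone, near the shares of all genes (39.1% and 25.5%), with Fn1, the fibronectin gene, at 2.96 and Tgfb1 at -2.00. Of 11 mural markers fitted, 3 were higher and 5 lower in cells grown alone, beside the same shares, and 4 were higher and 6 lower in co-cultured cells (38.6% and 26.0% of all genes). Rgs5, a pericyte gene, differed by -2.47 in cells grown alone.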

How the data were processed

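RNA of sorted or cultured cells was amplified by Smart-seq2 and read as 50-base single reads. Per the labels, the authors aligned with STAR 2.5.0a to GRCm38 and counted with featureCounts, given as version 1.6.0 for the transwell samples. The study's methods name another version, that of the Rsubread package. The deposited homeostasis values are named TPM, and the deposited transwell values are RPKM. The homeostasis columns sum to between 847270 and 1173511, since totals of all samples were reused down the table. They were analysed as deposited, and with this undone as an alternative and for shares and ratios. RPKM were scaled to TPM, and 26 transwell symbols had become dates. The 4 columns of population means were not used. Reads behind a value were recovered from its steps: 93.1% of 97054 low values were whole within 0.02 reads.

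Genes at 1 or more in at least 3 (homeostasis) or 2 (transwell) samples were kept. limma 3.58.1 in R 4.3.3 fitted log2(value + 1) estimating each group's mean from the 12 samples of its experiment together, with a trended prior, two-sided, with Benjamini-Hochberg adjustment over all genes tested and a threshold of 0.05. Scripts were tested on simulated data. Each mouse gave all 4 populations. For populations of one mouse, deviations from the group means had a correlation of 0.0373 on average (0.00395 to 0.0973) and those of other mice at -0.0187. The transwell replicates came from few littermates, so p-values measure only the spread between these samples. The text names all members, up to 3 genes a direction of each list by size of difference among those called, and genes among the 10 whose log2 values correlated best with the centred mean of the members (members, Gm models and Rik symbols left out). Genes named beyond these (Tnnt2, Acta1, and Col1a2 and Col3a1 in organoids) were chosen after their values were seen. The members and lists were chosen with earlier results of these data known. Annotation was GENCODE M21, and promoters were RefSeq on GRCm38.p6. Intervals cover the spread between samples and floors cover counting error only.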

Additional observations from a re-analysis of the deposited data

Results flagged for a closer look

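The values of Acta2 lay on opposite sides of day 0 in the lineages, at a log2 difference of 2.53 in SCA1+Msc cells grown alone over day 0, and -1.58 in EM organoids over DCs, with no overlap of replicates in either. The former contrast was used to choose the genes, the latter did not pass the limma test (adjusted p = 0.233, 95% interval -3.81 to 0.65, past the threshold in 0 of 13 settings), and the difference between them was not tested. Mylk likewise differed by 1.31 in co-cultured SCA1+Msc cells over day 0 and by -0.43 in co-cultured organoids over DCs, which did not pass the limma test (adjusted p = 0.117), and the difference between them was not tested. Within the ductal lineage, co-cultured organoids differed from EM organoids by -1.67 in Mylk (limma, adjusted p = 0.000689) and by -1.62 in Cnn1 (limma, adjusted p = 0.0446). These are the tests already given, as changes from the same DCs differ by that contrast. The call of Cnn1 passed in 3 of 13 settings.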

How the results depend on the processing

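Of the counts and medians over the members, 119 alternative values kept their direction and stayed near the reported value, 15 moved and 2 reversed; of the values of single genes, 732 stayed, 28 moved, 15 gained and 22 lost the threshold, and 3 reversed. The median of PDGFRα+SCA1- cells over DCs was 6.31 with a pseudocount of 0.1. The members called in co-cultured organoids over DCs numbered 1 with only the 2 groups fitted, and 1 to 3 with 1 replicate left out. Over EM organoids they numbered 1 with a pseudocount of 0.1, quantile normalization, no filter, no trend or RPKM, 0 with only the 2 groups fitted, and 1 to 2 with 1 replicate left out. With the replicate block, for numbers that share no stated source (mean correlation 0.00504), that count was 1, and Cnn1 was lost (adjusted p = 0.0503). In homeostasis the replicate block for the mouse changed no call of a member. The median of SCA1+Msc cells over day 0 ran from -0.0125 to 1.06 alone and from -0.0608 to 1.06 in co-culture with 1 replicate left out, and was 0.34 alone after quantile normalization. Acta2 in co-cultured organoids reversed to 0.0347 over DCs with RPKM. With 1 replicate left out it ran from -2.38 to 1.56 over DCs (without co-cultured replicates 2 and 1) and from -0.79 to 3.14 over EM organoids. The causes were not tested. With 2 or 3 samples a group, small differences were not detectable.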

Other observations

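The actins of striated muscle were near 0 in the sorted populations, and Tnnt2, a troponin gene of striated muscle, was not. Tnnt2 was 33.0 to 48.0 in PDGFRα+SCA1+ cells, 12.2 to 108 in PDGFRα+SCA1- cells and at most 3.99 in the other sorted populations. In SCA1+Msc cells it was 14.4 and 22.9 TPM at its lowest and highest on day 0 and 1.26 to 7.01 TPM in the 4 cultures. Acta1, the skeletal muscle actin, was 0 at day 0 in SCA1+Msc cells and 7.20 and 11.1 TPM in co-cultured organoids.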
